A study of Mus musculus with 6 samples.

Results

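Astrocyte genes were followed in the hypothalamus of diet-induced obese (DIO) mice given GSK-J4. The members were Gfap, Aqp4, Aldh1l1, Slc1a2, Slc1a3, Gja1, S100b, Aldoc, Glul and Sox9, 10 of the 37074 gene names on the array. They were chosen by name, as all probes whose gene name in the scanner output equals 1 of these symbols. This gave 30 of 56605 probes, each a 60-base oligonucleotide. A probe was kept where the signal of every array in a group was well above background. Of the 30 probes 23 were kept, among 34443 over the whole array. These 23 were detected in both groups, on 6 of 6 arrays, so none passed through 1 group alone, and each of the 10 genes kept at least 1 probe.

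Astrocytes are the glial cells that take up glutamate and potassium released by neurones, pass metabolites to them and line blood vessels with their endfeet. They are coupled to each other through gap junctions. In the hypothalamus they border the neurones that regulate feeding, and they are known to become reactive on a high-fat diet.

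GSK-J4 inhibits the Kdm6 demethylases, which remove methyl groups from H3k27. The arrays asked which transcripts differ in the hypothalamus after the compound. Male C57BL/6J mice had been fed an HFD with 60 kcal% fat for 16 weeks from 6 weeks of age, at 22 °C with 12 h of light. The GSK-J4 group (n = 3) received 30 mg/kg i.p. daily at ZT 2 h in 2% DMSO, and the vehicle group (n = 3) received 0 mg/kg. Per the labels, expression was measured 4 d after exposure, with a separate mouse for each array, and the methods describe a course of 21 d without naming the day of these arrays. Tissue was taken at ZT 6 h.

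All arrays labelled vehicle lay on slide 1 and all arrays labelled GSK-J4 on slide 2, and for every value that follows the slide and the compound cannot be told apart. The arrays also differed in brightness. Before normalization the 75th percentile of the background-corrected signal was 802, 916 and 787 on vehicle arrays 1 to 3 and 461, 453 and 406 on GSK-J4 arrays 1 to 3. Well above background were 63.6%, 63.4% and 62.8% of probes in the vehicle group and 58.7%, 57.7% and 58.6% in the GSK-J4 group. The part of this difference in the results was not tested. Across probes, arrays of 1 group correlated at 0.978 or above and arrays of different groups at 0.969 to 0.987.

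The tissue label was compared with 15 hypothalamic neuropeptide genes, of which 12 had a kept probe. Sst was the brightest of them, at a log2 signal of 15.14, 15.36 and 15.22 on the vehicle arrays and 15.31, 15.33 and 15.33 on the GSK-J4 arrays. Avp, Pmch and Trh had no kept probe, although these peptides define hypothalamic nuclei. Pomc, Npy and Ghrh each had a probe past the test, with log2 fold changes of 0.85, 0.42 and 0.59 (limma adjusted p = 0.022, 0.0267 and 0.025). These were 3 of 14 kept probes of the list, beside 8.39% of all kept probes higher and 8.42% lower. The called Ghrh probe was dim, with a mean log2 signal of 4.74 in the vehicle group and 5.33 in the GSK-J4 group. The brightest Ghrh probe was at 0.39 (limma adjusted p = 0.155) and was not called. Of 8 pituitary genes, 1 had a kept probe, Lhb. Vehicle 1 stood apart in the choroid plexus, the epithelium that secretes cerebrospinal fluid. The summed signal of its 10 marker genes, with Ttr the brightest, was 122664 on vehicle 1, 3459 on vehicle 2 and 3654 on vehicle 3, against 12882, 3205 and 6123 on GSK-J4 arrays 1 to 3. Results are therefore given with and without vehicle 1 where an astrocyte probe passed the test.

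The astrocyte probes that passed the test belonged to Gja1 and Slc1a3, and the share that passed was near that of the whole array. In limma over all kept probes (adjusted p of at most 0.05), 2 of the 23 probes were higher with GSK-J4 and 1 was lower. Over all 34443 kept probes the shares were 8.39% higher and 8.42% lower, 16.8% in all. The groups did not overlap for 11 of the 23 probes, 8 higher and 3 lower, beside 45.6% of all kept probes. At an unadjusted limma p under 0.05 there were 8 of 23, 5 higher and 3 lower, beside 36.5% of all kept probes, 19.5% higher and 17% lower. Whether a shift in such bulk tissue reflects the number of astrocytes or the RNA of each astrocyte cannot be told apart.

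The median log2 fold change of the 23 astrocyte probes was 0.18, beside 0.024 for all kept probes. It was above 0 for 17 of the 23 and below 0 for 6, where 52.7% of all kept probes were above 0. For 13 of the 23 the 95% interval lay within a 1.5-fold change in either direction. The median standard error was 0.118 on the log2 scale, near the 0.126 of all kept probes. When the arrays were scaled to the 75th percentile without a quantile step, the median of the members was 0.38. It is given without the median of all kept probes under that scaling, so it is not to be set against 0.024. Under the same scaling 12 of the 23 were called, 10 higher and 2 lower, beside 25.2% of all probes, 14.6% higher and 10.6% lower. The 12 were the 3 probes above, all 3 of Aldoc, 1 each of Aldh1l1, Glul, S100b and Slc1a2, A_66_P104552 of Slc1a3 and A_55_P2741897 of Gja1. When any 1 of vehicle 1, vehicle 2 and vehicle 3 was left out, 0 of the 23 were called by limma, and over all kept probes the calls dropped to 10, 13 and 5 from 5788. Without GSK-J4 1, GSK-J4 2 or GSK-J4 3 the members called were 1, 4 and 1, beside 2402, 4165 and 4018 of the 34443 kept probes.

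**Figure D1:**
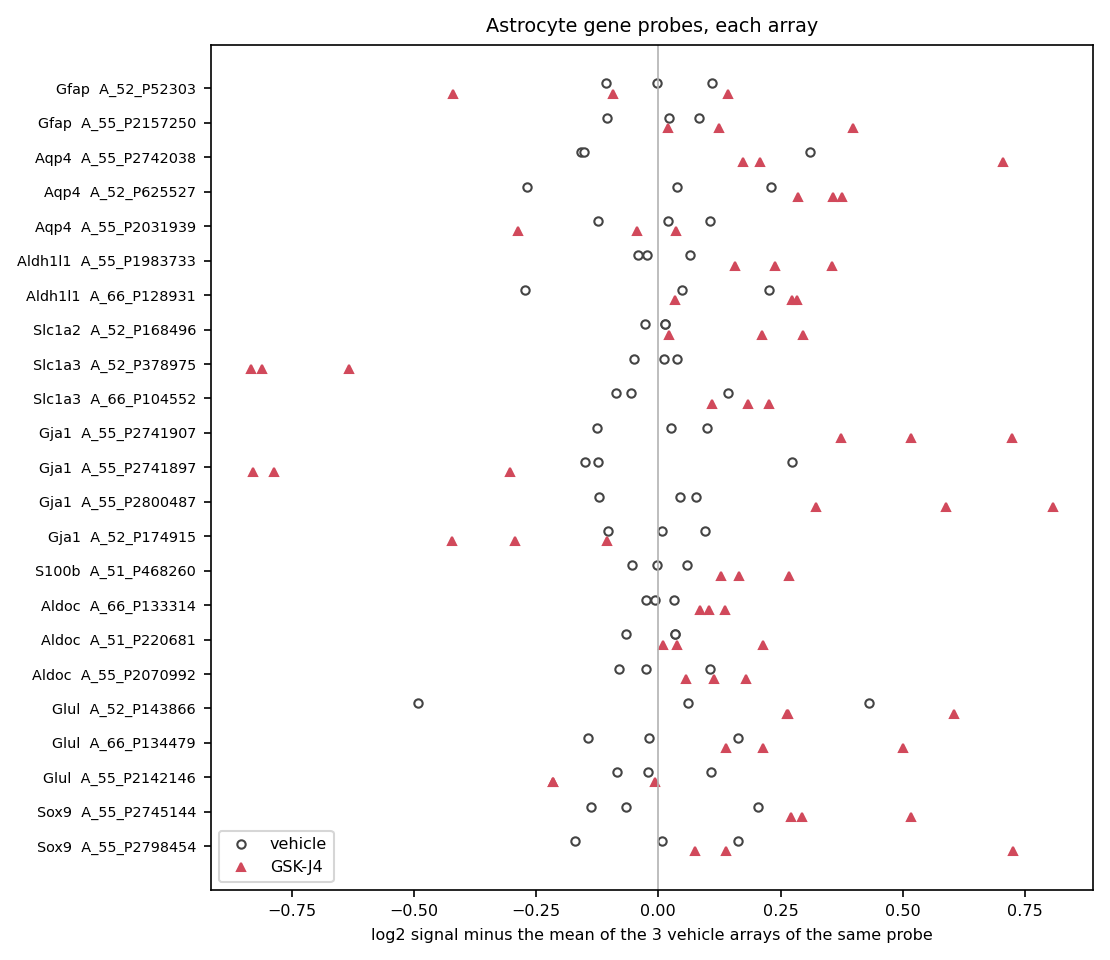
Log2 signal of each array for the 23 kept astrocyte probes, with the mean of the 3 vehicle arrays of the same probe subtracted (x axis), 1 probe a line; open circles are vehicle arrays and triangles GSK-J4 arrays. The groups do not overlap for 11 probes, among them all 4 kept probes of Gja1, which lie on both sides of 0.

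With 1 probe a gene, the kept probe of highest mean, 0 of the 10 astrocyte genes were called by limma, where 8.6% of 22117 gene names were higher and 7.56% lower. By the same adjusted p, 5 were higher with 75th percentile scaling, where 17.5% of gene names were. With a trended, robust eBayes step 1 was higher, a count given without the share of all gene names under that step. At an unadjusted limma p under 0.05 there were 2 of 10, the probes of Aldh1l1 and Gja1, beside 35.6% of gene names. The median of these 10 probes was 0.14, beside 0.036 for all gene names. The mean over the kept probes of a gene also gave 0 calls among the 10, and it ranged from -0.29 for Slc1a3 (limma adjusted p = 0.0552) to 0.34 for Sox9 (limma adjusted p = 0.178). The Slc1a3 value weighs its kept probes equally, the dimmer at -0.76 and the brighter at 0.17.

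Gfap encodes the intermediate filament protein of the astrocyte cytoskeleton, and its level is widely used to follow reactive astrocytes. Probe A_52_P52303, on chromosome 11 from 102751813 to 102751872 of mm9, read 12.77, 12.89 and 12.67 in the vehicle group and 12.36, 12.92 and 12.68 in the GSK-J4 group. GSK-J4 1 was the lowest of the 6 arrays and the groups overlapped. Its log2 fold change was -0.12 (95% interval -0.51 to 0.26, limma adjusted p = 0.601), and it was 0.065 after 75th percentile scaling, 0.025 without GSK-J4 1 and -0.26 without GSK-J4 2. Probe A_55_P2157250, from 102748864 to 102748923, carries another transcript record of Gfap. It read 11.93, 11.87 and 11.74 in the vehicle group and 11.87, 12.24 and 11.97 in the GSK-J4 group, where GSK-J4 1 lay inside the range of the vehicle arrays. The log2 fold change was 0.18 (95% interval -0.12 to 0.48, limma adjusted p = 0.327), and it was 0.071 without GSK-J4 2 and 0.34 with 75th percentile scaling.

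Aqp4 encodes the water channel of the astrocyte endfoot. Of its 4 probes, 3 were kept, and A_55_P2742033 was detected on none of the arrays. Probe A_52_P625527 read 9.78, 9.59 and 9.28 in the vehicle group and 9.83, 9.90 and 9.92 in the GSK-J4 group. The 3 GSK-J4 arrays lay above the 3 vehicle arrays by a small margin, and the log2 fold change was 0.34 (limma adjusted p = 0.137), which did not pass the test and was 0.20 without vehicle 3. Probe A_55_P2031939, nearest the 3′ end and with the same transcript record, read 11.35, 11.26 and 11.12 in the vehicle group and 10.96, 11.20 and 11.28 in the GSK-J4 group. These values overlapped, and the log2 fold change was -0.10 (95% interval -0.38 to 0.19, limma adjusted p = 0.57), 0.017 after 75th percentile scaling and 0.09 after a lowess on GC content was subtracted within each array (the GC trend removed), where A_52_P625527 was at 0.12. With an array left out A_55_P2031939 ranged from -0.17 without GSK-J4 3 to -0.0041 without GSK-J4 1, and it was -0.046 without vehicle 1 and -0.16 without vehicle 3. The third kept probe, A_55_P2742038, carries a predicted transcript record and read 5.65, 5.18 and 5.19 in the vehicle group and 6.05, 5.55 and 5.52 in the GSK-J4 group. Replicate 1 was the highest of each group, vehicle 1 lay above GSK-J4 2 and GSK-J4 3, and the log2 fold change was 0.36 (95% interval -0.13 to 0.86), which was 0.19 without GSK-J4 1, 0.23 with 75th percentile scaling and 0.14 with normexp, another background correction.

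Slc1a2 and Slc1a3 encode the transporters GLT-1 and GLAST, which clear glutamate from the synapse. Slc1a2 had 1 kept probe of 2, A_52_P168496, on chromosome 2 from 102617706 to 102617765 of mm9 on the plus strand. Its sequence is printed as the single kept reading of this transporter, with G and C in capitals.
Slc1a2 A_52_P168496: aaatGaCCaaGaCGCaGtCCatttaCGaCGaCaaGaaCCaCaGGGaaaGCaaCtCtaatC
It read 12.88, 12.84 and 12.88 in the vehicle group and 13.08, 12.89 and 13.17 in the GSK-J4 group. GSK-J4 2 lay just above the vehicle arrays and the groups did not overlap. The log2 fold change was 0.18 (95% interval -0.05 to 0.40, limma adjusted p = 0.22) and did not pass the test. It was 0.12 without GSK-J4 3 and 0.40 with 75th percentile scaling, the 1 setting of 22 that called it.

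Slc1a3 fell at 1 probe and did not pass the test at the other. Probe A_52_P378975, on chromosome 15 from 8630573 to 8630632 of mm9 on the minus strand, read 8.79, 8.71 and 8.77 in the vehicle group and 7.94, 8.12 and 7.92 in the GSK-J4 group. All GSK-J4 arrays lay below all vehicle arrays by a gap wider than the spread of either group, from 8.76 ± 0.04 (SD, n = 3) to 8.00 ± 0.11 (SD, n = 3). The log2 fold change was -0.76 (95% interval -0.97 to -0.55, limma adjusted p = 0.0144), and the exact permutation p was 0.1, two-sided, the smallest that 3 against 3 arrays can give. Probe A_66_P104552, from 8584747 to 8584806 and with a different transcript record, read 13.64, 13.44 and 13.41 in the vehicle group and 13.61, 13.68 and 13.72 in the GSK-J4 group. Vehicle 1 lay within the range of the GSK-J4 arrays. The log2 fold change of this probe was 0.17 (95% interval -0.05 to 0.40, limma adjusted p = 0.221). With 75th percentile scaling it was 0.45 and called higher, the 1 setting of 22 that called it, with adjusted p-values from 0.0169 to 0.45 over the alternatives, and with the GC trend removed it was 0.26. No annotation of mm9 was used here, so whether either probe lies in a coding exon or a UTR was not determined. Probe A_55_P2714110, with yet another record, was detected on none of the arrays.

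The call at A_52_P378975 was lost without vehicle 1, vehicle 2 or vehicle 3, where the log2 fold change was -0.74, -0.78 and -0.75 (limma adjusted p = 0.0587, 0.0659 and 0.0683). It was called under 16 of 21 other settings, with adjusted p-values from 0.00985 to 0.0814 over those that gave one, and with the trend on GC content removed the log2 fold change was -0.57 (limma adjusted p = 0.0233).

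Glul encodes glutamine synthetase, which converts the glutamate taken up by astrocytes to glutamine. Its 3 kept probes share 1 transcript record on chromosome 1 of mm9, plus strand. They are A_52_P143866 from 155751765 to 155751824, A_66_P134479 from 155755109 to 155755168 and A_55_P2142146 from 155756765 to 155756824. The former 2 are printed because they differ in base composition, with 45% and 56.7% G and C (capitals), while the third holds 35%.
Glul A_52_P143866: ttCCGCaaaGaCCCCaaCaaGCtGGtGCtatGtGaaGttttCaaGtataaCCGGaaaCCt
Glul A_66_P134479: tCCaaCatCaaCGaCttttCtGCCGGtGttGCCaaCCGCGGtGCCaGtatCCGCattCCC
Probe A_52_P143866 read 9.69, 10.25 and 10.62 in the vehicle group and 10.45, 10.45 and 10.79 in the GSK-J4 group, the widest spread within a group of any kept member. Vehicle 3 lay inside the range of the GSK-J4 arrays, and the log2 fold change was 0.38 (95% interval -0.24 to 0.99), which was 0.13 without vehicle 1 and 0.59 without vehicle 3. For A_66_P134479 the values were 12.42, 12.54 and 12.72 in the vehicle group and 12.70, 12.78 and 13.06 in the GSK-J4 group. Vehicle 3 lay just above GSK-J4 1, and the log2 fold change of 0.28 (limma adjusted p = 0.18) was 0.028 with the trend on GC content removed, 0.18 without GSK-J4 3 and 0.49 with 75th percentile scaling, the 1 setting that called it. The 3′-most probe, A_55_P2142146, read 15.22, 15.16 and 15.35 in the vehicle group and 15.03, 15.03 and 15.24 in the GSK-J4 group. GSK-J4 3 lay inside the range of the vehicle arrays, and the log2 fold change was -0.15 (95% interval -0.38 to 0.09), which was 0.29 after 75th percentile scaling, 0.042 once the GC trend was removed and -0.093 without vehicle 3. None of the 3 Glul probes passed the test.

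Gja1 encodes connexin 43, the gap junction protein through which astrocytes are coupled, and 2 of its probes rose. It had 8 probes on chromosome 10 of mm9, of which 4 were kept, and all 4 gave groups that did not overlap. Probe A_55_P2741907, from 56097212 to 56097271, read 7.17, 7.32 and 7.39 in the vehicle group and 7.81, 7.67 and 8.02 in the GSK-J4 group. The lowest GSK-J4 array lay above the highest vehicle array, and the log2 fold change was 0.54 (95% interval 0.25 to 0.83, limma adjusted p = 0.0362). Probe A_55_P2800487, listed from 56108488 to 56108978, read 8.20, 8.40 and 8.37 in the vehicle group and 8.91, 8.65 and 9.13 in the GSK-J4 group. Its 3 GSK-J4 arrays again lay above the vehicle arrays, and the log2 fold change was 0.57 (95% interval 0.22 to 0.92, limma adjusted p = 0.0462).

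The other kept Gja1 probes gave values of the opposite sign and did not pass the test. The 3′-most, A_52_P174915, from 56109814 to 56109873, shares its transcript record with both probes that rose. It read 10.33, 10.44 and 10.52 in the vehicle group and 10.01, 10.14 and 10.32 in the GSK-J4 group. All 3 GSK-J4 arrays lay below the vehicle arrays, GSK-J4 3 by a margin of under the spread, and the log2 fold change was -0.27 (limma adjusted p = 0.132) and -0.086 with the GC trend removed. Probe A_55_P2741897 carries a predicted record and is listed from 56097389 to 56107356, a span far longer than its 60 bases. It read 6.20, 6.22 and 6.62 in the vehicle group and 5.52, 6.04 and 5.56 in the GSK-J4 group. The log2 fold change was -0.64 (95% interval -1.11 to -0.17, limma adjusted p = 0.0696), and it ranged from -0.81 without GSK-J4 2 to -0.30 with normexp. This probe was called under 5 of 21 other settings, with adjusted p-values from 0.0428 to 0.176 over those that gave one. Among the 4 probes not kept, A_55_P2741895 was well above background on 2 vehicle arrays and 0 GSK-J4 arrays, A_55_P2741899 on 1 and 0, and A_55_P2741911 and A_55_P2741901 on none.

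The calls at the Gja1 probes that rose were lost under more settings. Without vehicle 1, 2 or 3 the limma adjusted p of A_55_P2741907 was 0.0985, 0.108 and 0.0909 at log2 fold changes of 0.48, 0.55 and 0.59, and it was 0.0794 without GSK-J4 1 (0.55) and 0.058 without GSK-J4 3 (0.45). For A_55_P2800487 the same 5 omissions gave 0.122, 0.115, 0.119, 0.104 and 0.0713 at 0.51, 0.61, 0.59, 0.56 and 0.46. Each was called under 7 of 21 other settings, with adjusted p-values from 0.0293 to 0.123 for the former and from 0.0332 to 0.167 for the latter.

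**Figure D2:**
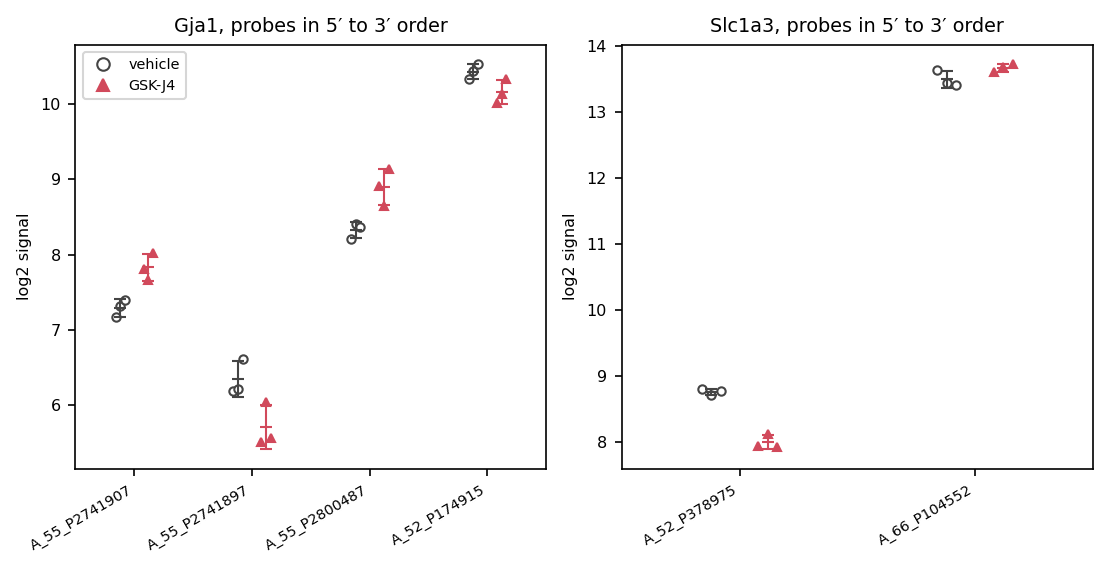
Log2 signal (y axis) of each array for the kept probes of Gja1 (left) and Slc1a3 (right), in 5′ to 3′ order; open circles are vehicle arrays, triangles GSK-J4 arrays, and bars the mean with the SD of 3 arrays. Each probe is to be compared between its own groups only: GSK-J4 arrays lie above vehicle at 2 Gja1 probes and below at the other 2, and at Slc1a3 they lie below for A_52_P378975 and overlap for A_66_P104552.

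Whether probes of 1 gene moved by different amounts was tested on the difference of log2 signal between each other probe and the brightest probe of the gene, array by array, with limma over all 12326 such pairs. This comparison was chosen after the values had been seen. It called 3 of the 13 astrocyte pairs, beside 10.1% of all pairs. The 3 came from Gja1 and Slc1a3 alone, and the 2 of Gja1 share the probe A_52_P174915, so they are not independent. For Gja1 the difference of A_55_P2741907 from A_52_P174915 shifted by 0.81 (95% interval 0.55 to 1.07, limma adjusted p = 0.0208) and that of A_55_P2800487 by 0.85 (95% interval 0.53 to 1.17, limma adjusted p = 0.0247). For Slc1a3 the difference of A_52_P378975 from A_66_P104552 shifted by -0.93 (95% interval -1.21 to -0.66, limma adjusted p = 0.0204). Unequal change within a gene does not show which of its probes was unchanged. The Glul pair of A_66_P134479 and A_55_P2142146 (0.43, limma adjusted p = 0.0532), the Aqp4 pair of A_52_P625527 and A_55_P2031939 (0.44, limma adjusted p = 0.0703) and the Gfap pair (0.30, limma adjusted p = 0.125) did not pass. They were called under 3, 1 and 1 of 13 alternatives, with adjusted p-values from 0.0353 to 0.94, from 0.0401 to 0.861 and from 0.0359 to 0.376, and with the GC trend removed the shifts were -0.014, 0.035 and 0.16. The 3 called pairs were still called with the GC trend removed, at 0.57 for A_55_P2741907, 0.71 for A_55_P2800487 and -0.83 for A_52_P378975. They were called under 9, 8 and 9 of 13 alternatives, with adjusted p-values from 0.0119 to 0.0921, from 0.0174 to 0.0989 and from 0.0101 to 0.0921, and were lost with the replicate number as a block (limma adjusted p = 0.0895, 0.0922 and 0.0895), where 0 of all pairs were called. Without vehicle 1, vehicle 2 or vehicle 3, 0 astrocyte pairs and 0 of all pairs were called by limma, and the shifts were then 0.80, 0.82 and 0.82 for A_55_P2741907, 0.84, 0.88 and 0.82 for A_55_P2800487 and -0.99, -0.93 and -0.88 for A_52_P378975. Without GSK-J4 1 the shift of A_55_P2800487 was 0.76 (limma adjusted p = 0.0555) and 2 pairs were called.

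Aldh1l1 and Aldoc encode metabolic enzymes of astrocytes, of folate metabolism and of glycolysis. Aldh1l1 probe A_55_P1983733, on chromosome 6 from 90549091 to 90549150 of mm9, read 12.66, 12.67 and 12.76 in the vehicle group and 13.05, 12.93 and 12.85 in the GSK-J4 group. The groups did not overlap, but the log2 fold change of 0.25 (95% interval 0.05 to 0.45) did not pass the test (limma adjusted p = 0.0885). It was called under 2 of 22 other settings, 75th percentile scaling (0.46) and a trended, robust eBayes step (0.25), with adjusted p-values from 0.0221 to 0.223 over those that gave one. The other Aldh1l1 probe, A_66_P128931, read 6.50, 6.82 and 7.00 in the vehicle group and 7.05, 6.80 and 7.04 in the GSK-J4 group, and its groups overlapped. Its log2 fold change was 0.20 (95% interval -0.18 to 0.57), 0.061 without vehicle 1 and 0.31 without vehicle 3. It was 0.0018 with the GC trend removed and 0.060 with 75th percentile scaling. Aldoc was measured by 3 kept probes with log2 fold changes of 0.11, 0.087 and 0.12 (limma adjusted p = 0.276, 0.498 and 0.353). These probes lie on chromosome 11 of mm9, between 78139897 and 78140257. A_66_P133314 read 15.29, 15.35 and 15.31 in the vehicle group and 15.42, 15.40 and 15.45 in the GSK-J4 group, and its groups did not overlap. A_51_P220681 read 16.21, 16.31 and 16.31 in the vehicle group and 16.28, 16.31 and 16.49 in the GSK-J4 group. A_55_P2070992 read 16.19, 16.38 and 16.25 in the vehicle group and 16.45, 16.33 and 16.39 in the GSK-J4 group. The groups of these latter probes overlapped. With the GC trend removed, A_66_P133314 was at -0.026, A_51_P220681 at -0.14 and A_55_P2070992 at 0.061. Without vehicle 1 A_51_P220681 was at 0.054 and A_55_P2070992 at 0.075, without GSK-J4 3 A_51_P220681 was at 0.024, and with normexp A_66_P133314 was at 0.034. With 75th percentile scaling A_66_P133314, A_51_P220681 and A_55_P2070992 were at 0.55, 0.59 and 0.62 and each was called, under that setting alone. The adjusted p over the alternatives ranged from 0.0121 to 0.809, from 0.0142 to 0.85 and from 0.0155 to 0.652 for these 3 probes. A_51_P220681 and A_55_P2070992 are printed on the array many times, and the SD over 8 to 10 spots within an array was 0.012 to 0.138 on the log2 scale for the former and 0.039 to 0.232 for the latter.

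S100b encodes a calcium-binding protein of astrocytes and had 1 probe, A_51_P468260, on chromosome 10 from 75723783 to 75723842 of mm9. It read 14.19, 14.13 and 14.08 in the vehicle group and 14.30, 14.26 and 14.40 in the GSK-J4 group. The 3 GSK-J4 arrays lay above the vehicle arrays, and the log2 fold change of 0.19 (limma adjusted p = 0.137) did not pass the test. It was 0.50 with 75th percentile scaling, the 1 setting that called it, and 0.31 with the GC trend removed.

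Sox9 encodes a transcription factor of astrocytes and their progenitors. Its 2 probes share a transcript record on chromosome 11 of mm9, plus strand. The sequence of A_55_P2745144, from 112646642 to 112646701, is printed because it is the member richest in G and C (capitals), at 58.3%.
Sox9 A_55_P2745144: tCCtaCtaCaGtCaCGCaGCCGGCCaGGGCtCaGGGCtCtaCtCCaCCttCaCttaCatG
It read 7.54, 7.20 and 7.27 in the vehicle group and 7.61, 7.63 and 7.86 in the GSK-J4 group. GSK-J4 1 lay just above vehicle 1, so the groups did not overlap. The log2 fold change was 0.36 (95% interval 0.05 to 0.67, limma adjusted p = 0.0971), which did not pass the test and was 0.10 with the GC trend removed and 0.24 with 75th percentile scaling. Probe A_55_P2798454, from 112647560 to 112647619, read 9.21, 8.88 and 9.06 in the vehicle group and 9.19, 9.12 and 9.78 in the GSK-J4 group. GSK-J4 3 was the highest array and the others overlapped, with a log2 fold change of 0.31 (95% interval -0.18 to 0.80, limma adjusted p = 0.302), which was 0.11 without GSK-J4 3.

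**Figure D3:**
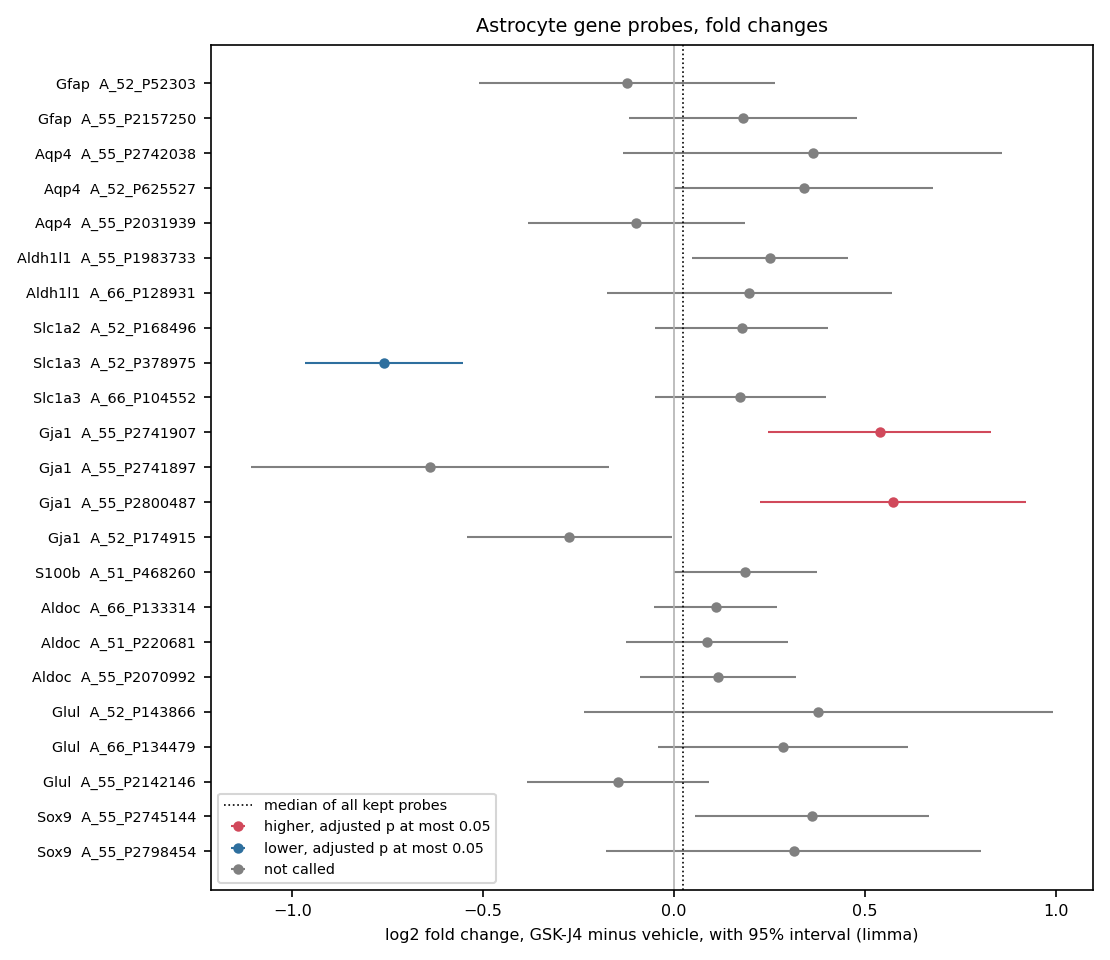
Log2 fold change (x axis, GSK-J4 minus vehicle) with its 95% interval from limma for the 23 kept astrocyte probes; the dotted line is the median of all kept probes, 0.024. The 2 Gja1 probes that were called higher and the Slc1a3 probe called lower are coloured, and the other 20 are grey.

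Fold changes varied with the base composition of the probe over the whole array. The astrocyte probes were counted by the same classes, and this split was also chosen after the values had been seen. Among 12125 kept probes with at most 38.3% GC the median log2 fold change was -0.13, with 2.35% called higher and 14.1% lower. Among 7306 probes with at least 46.7% GC it was 0.23, with 20% higher and 1.67% lower, and the 15012 probes between them had a median of 0.045. The 7 astrocyte probes of the low class had a median of -0.12, with 2 above 0. In the middle class 9 of 10 members were above 0 (median 0.28), and in the high class 6 of 6 (median 0.24). The Slc1a3 probe that fell holds 35% GC, and the Gja1 probes that rose hold 45% and 40%. With the GC trend removed the median of the 23 members was 0.10, given without the median of all kept probes after that step. Of the Gja1 probes that rose, A_55_P2741907 was then at 0.48 (limma adjusted p = 0.0532). A_55_P2800487 was at 0.63 (limma adjusted p = 0.0491), so the latter was still called.

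**Figure D4:**
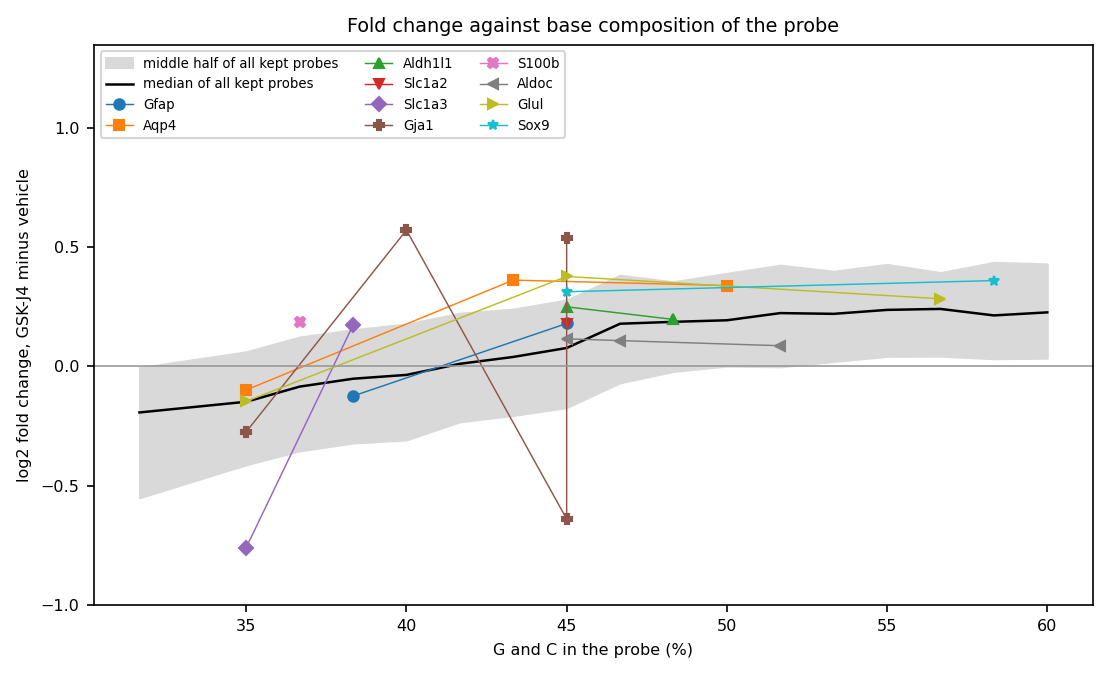
Log2 fold change (y axis) of the 23 kept astrocyte probes against the share of G and C in the probe (x axis), with a line joining probes of 1 gene; the black line and grey band are the median and the middle 50% of all kept probes at each GC value held by at least 100 probes. The median of all probes is below 0 at low GC and above 0 at high GC, and of the 4 Gja1 probes 2 lie above the band, 1 lies below it and 1 within it.

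Position along the transcript was described for probes that share a RefSeq transcript record, as the upstream probe minus the 3′-most probe. In the astrocyte genes 6 of 7 such pairs, from Aqp4, Gja1, Glul and Sox9, had the larger fold change upstream, with a median difference of 0.44, and the remaining pair, from Aldoc, was at -0.029. Over 6763 pairs of all genes the median was 0.077, with 60.4% larger upstream. The upstream member was also richer in GC, by a median of 10 points in the astrocyte pairs and 5 points in all pairs. Over all genes the larger fold change lay upstream in 69.3% of 3403 pairs where the upstream probe was richer by at least 5 points, in 54.1% of 2549 pairs within 5 points and in 42.9% of 811 pairs where it was poorer by at least 5 points (median -0.057). With the GC trend removed 4 of the 7 astrocyte pairs were larger upstream, with a median of 0.035, beside 47.3% of all pairs.

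Further genes of astrocytes were taken from lists, with 1 probe a gene, the kept probe of highest mean. Of 40 other astrocyte genes, all measured, 4 were higher and 0 lower by limma, beside 8.6% and 7.56% of all gene names, with a median log2 fold change of 0.11. At an unadjusted limma p under 0.05 there were 14, beside 35.6%, so this total over both directions lay near the share of the whole array. Of these, the brightest probes of Nfib (-0.44) and F3 (-0.29) were lower and the rest higher. By the same p, 19.5% of all kept probes were higher and 17% lower, a share over every kept probe and not over 1 probe a gene. The difference in direction was not tested. Over all their 63 kept probes, 7 were higher and 3 lower, beside 8.39% and 8.42% of all kept probes. The 3 lower probes, named after their values were seen, were 1 of Nfib, a transcription factor of glia (-0.51, limma adjusted p = 0.0479), which was detected on all 6 arrays, and 2 of Slc4a4, which passed the filter through the vehicle group alone. Agt, which encodes the angiotensinogen made by astrocytes, rose from 10.63 ± 0.26 (SD, n = 3) to 11.32 ± 0.06 (SD, n = 3), or 0.69 on the log2 scale (limma adjusted p = 0.0305). Probes other than the brightest of their gene rose for Hes5, an effector of Notch (0.93, limma adjusted p = 0.0223), and for Atp1b2, which encodes a sodium pump subunit of astrocytes (0.82, limma adjusted p = 0.024). The brightest probes of these genes did not pass the test, at 0.56 for Hes5 (limma adjusted p = 0.0813) and 0.35 for Atp1b2 (limma adjusted p = 0.301). Sparcl1, the brightest of the list, was at -0.31 (limma adjusted p = 0.208). Without vehicle 1, vehicle 2, vehicle 3 or GSK-J4 3, 0 genes of the list were called by limma. Without GSK-J4 1 there were 2 higher, and without GSK-J4 2 there were 1 higher and 1 lower. With 75th percentile scaling 21 were higher, beside 17.5% of all gene names, and with a trended, robust eBayes step 10 were higher and 1 lower. Detection on all 6 arrays gave 7 higher, no filter 1, the GC trend removed 2, and the replicate number as a block 0. Apart from 75th percentile scaling, these counts are given without the share of all gene names under the same setting. Whether they exceed that share was not tested.

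Genes of reactive astrocytes showed 0 calls among 24 measured of 28 by limma, beside 8.6% of all gene names higher and 7.56% lower. Their median was 0.16, beside 0.036 for all gene names. At an unadjusted limma p under 0.05 there were 6, beside 35.6%. Other settings gave 3 higher with normexp, 2 higher with array weights, 1 higher with 75th percentile scaling, a trended, robust eBayes step, detection on all 6 arrays, the GC trend removed or GSK-J4 1 left out, and 1 lower without GSK-J4 2. At 1.5-fold and unadjusted p, limma gave 1 higher. With 75th percentile scaling 17.5% of all gene names were higher, and no such share is given for the other settings. A second probe of Cd14, which encodes a receptor for bacterial lipopolysaccharide and is also made by microglia, rose by 0.51 on the log2 scale (limma adjusted p = 0.0473). It was the 1 call among 38 kept probes of the list, beside 8.39% of all kept probes higher and 8.42% lower. Hspb1, a small heat shock protein and the brightest of them, was at -0.044. Of 19 genes of glutamate and lactate handling, 0 were called by limma, beside the same 8.6% higher and 7.56% lower. An unadjusted limma p under 0.05 was found for 2, beside 35.6% of all gene names, and the median was 0.031. There were 3 higher with 75th percentile scaling, beside 17.5% of all gene names. The median of the list was then 0.27, given without that of all gene names under this scaling. There was 1 higher without GSK-J4 2 and 1 higher by limma at 1.5-fold and unadjusted p. Over all their 38 kept probes the median was -0.042, with 0 called higher and 1 lower, beside 8.39% and 8.42% of all kept probes. Ldhb, a subunit of lactate dehydrogenase, was the brightest of these genes, at 0.078 (limma adjusted p = 0.545).

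Markers of other cells in the tissue were counted in the same way beside the astrocyte genes. For comparison, limma called 8.6% of all gene names higher and 7.56% lower, and 8.39% and 8.42% of all kept probes. An unadjusted limma p under 0.05 was found for 35.6% of all gene names, whose median was 0.036. Microglia markers had a median of 0.22, with 7 of 10 above 0 and 3 below. Of the 10, 2 were called higher, C1qb (0.46) and C1qa (0.41). Itgam, the brightest, was at -0.12 and was not called. Of the oligodendrocyte precursor markers 1 of 6 was higher, Cspg4 (0.52), and their brightest gene was Gpr17. Neurone markers had a median of 0.077, with 7 of 10 above 0, 1 of 10 called lower, Map2 (-0.33), and Eno2 the brightest. Over all their 25 kept probes the median was -0.058, with 12 above 0, 1 called higher and 6 lower. Probes other than the brightest of their gene fell by 1.52, 1.14 and 0.75 on the log2 scale for Map2, Syt1 and Snap25, while another Map2 probe rose (0.49, limma adjusted p = 0.0314). Oligodendrocyte markers had 0 of 10 called by limma, 2 at an unadjusted p under 0.05, and a median of 0.073. Endothelial and mural markers had 1 of 10 lower, Rgs5 (-0.57), with Flt1 the brightest and a median of -0.036. Of 10 tanycyte markers 8 were measured, with Crym the brightest and a median of 0.05, and the 1 call among them, Rax, passed the filter through the GSK-J4 group alone, being well above background on 2 of 3 vehicle arrays. Ependymal markers, led by Rarres2, had 0 of 7 called and 0 at an unadjusted limma p under 0.05, with a median of -0.35. The 10 choroid plexus markers likewise had 0 and 0, with a median of -1.31 that rests on vehicle 1. Their mean log2 signal was 12.58 on vehicle 1, 7.29 on vehicle 2 and 7.33 on vehicle 3. On GSK-J4 arrays 1 to 3 it was 8.52, 7.22 and 7.67. Beside vehicle 2 and vehicle 3 alone, GSK-J4 1 and GSK-J4 3 were thus higher and GSK-J4 2 was lower. The summed signal of the brightest probes of the 10 astrocyte genes, with Aldoc the brightest, was 170026, 176630 and 173039 on the vehicle arrays and 181703, 175670 and 187249 on the GSK-J4 arrays, so these sums overlapped. The part of other cell types in the astrocyte values was not tested.

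**Figure D5:**
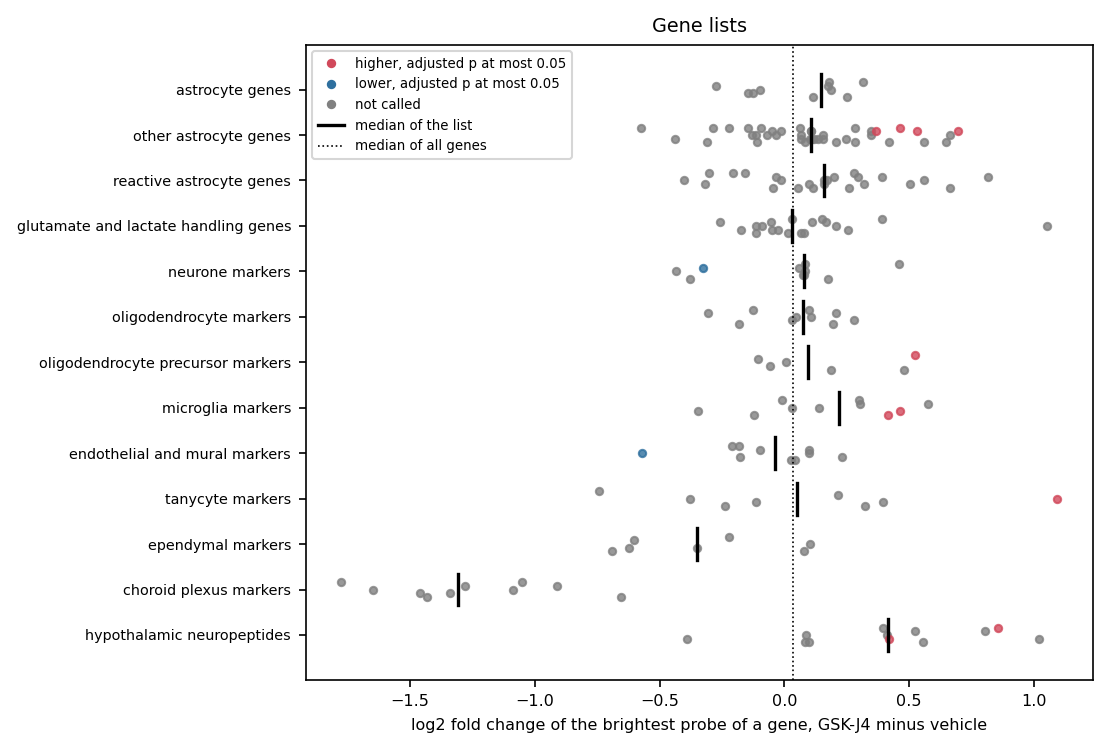
Log2 fold change (x axis, GSK-J4 minus vehicle) of the brightest kept probe of each gene, by gene list; each point is a gene, coloured where called by limma, black bars are list medians and the dotted line is the median of all gene names, 0.036. The astrocyte genes lie between -0.27 and 0.31 with 0 calls, and the choroid plexus genes lie farthest below 0. The choroid plexus values rest on vehicle 1, where their mean log2 signal was 12.58, against 7.29 and 7.33 on vehicle 2 and vehicle 3. On the GSK-J4 arrays it was 8.52, 7.22 and 7.67.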

How the data were processed

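RNA from the hypothalamus of 6 mice was hybridised to Agilent SurePrint G3 mouse arrays in 1 colour. The authors extracted spot intensities with Feature Extraction 10.7.1.1 and deposited them with the flags of each spot. The deposited log2 matrix, quantile normalized by the authors in GeneSpring per the methods, supplied the values, and each of its columns correlated with its own scanner file at 0.999 or above. Its column medians were 5.75, and 0 columns were left unassigned. Probes were kept if well above background on all 3 arrays of a group. Groups were compared two-sided with limma 3.58.1 (lmFit and eBayes, no covariate) in R 4.3.3 with data.table (version 1.17.8), with Benjamini-Hochberg adjustment over all 34443 kept probes. The scripts were checked on simulated data. A log2 fold change is the difference of group means, GSK-J4 minus vehicle. Single probes were also tested by exact permutation over 20 orders of the arrays. Coordinates and probe sequences are those of the scanner files (mm9).

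The members and lists were chosen with earlier results of these data known. Named besides the members were the called genes of each list, at most 4 by the size of the log2 fold change among probes detected on all 6 arrays, and the brightest gene of each list. Some genes that this rule names are not reported here. Alternatives were other normalizations, background corrections, filters, variance models and tests, a lowess on GC content (span 30%), a replicate block, 1 value a gene, and each array left out. The number of arrays limits the precision.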

Additional observations from a re-analysis of the deposited data

How the results depend on the processing

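With the scanner signals quantile normalized, and with normexp (offset 50), the same count of 3 astrocyte probes was called. It was 12 with 75th percentile scaling, 1 without a filter on dim probes, 1 with the other detection flag, 1 with an equal-variance t-test after Benjamini-Hochberg, 0 with the methods' t-test, which does not assume equal variances, 0 with 1 probe a gene, 0 with gene means, and 0 to 4 with an array left out. At the methods' 1.5-fold and unadjusted p, either t-test called 2, 0 higher and 2 lower, Gja1 A_55_P2741897 and Slc1a3 A_52_P378975. Calls over all probes went from 5788 to 3765 without a filter, 3642 with the equal-variance t-test at these thresholds and 3315 after Benjamini-Hochberg, 2938 and 93 likewise with the methods' t-test, 3649 with the GC lowess, 3711 with 1 probe a gene, 3509 with gene means, and 5 to 4165 with an array left out. The replicate block gave 0 calls over all probes and 0 among the members. Deviations from the group means correlated at r = 0.007, 0.026 and 0.081 for same-numbered arrays. For arrays of different number r ranged from -0.098 to 0.093. The labels give only a replicate number, and whether same-numbered arrays share more than that was not tested. The median of the members was 0.38 with 75th percentile scaling, 0.098 with the GC lowess and 0.15 to 0.22 with an array left out. These medians are given without the median of all kept probes under the same setting. Among the 40 other astrocyte genes 3 were called with the equal-variance t-test after Benjamini-Hochberg, 2 higher and 1 lower, 0 with the methods' t-test, and 2 higher with either at 1.5-fold and unadjusted p. At these thresholds the equal-variance t-test called 1 reactive astrocyte gene and 1 gene of glutamate and lactate handling, both higher, and the methods' t-test 0 and 0. With 75th percentile scaling, 58.1% of 8674 calls were higher, against 49.9%.

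Signs turned in these log2 values, none of them called. With 75th percentile scaling Gfap A_52_P52303 was at 0.065, Aqp4 A_55_P2031939 at 0.017, Glul A_55_P2142146 at 0.287 and the Sox9 pair at -0.084. With the GC lowess Aldoc A_51_P220681 was at -0.142, Aldoc A_66_P133314 at -0.0256, Aqp4 A_55_P2031939 at 0.0897, Glul A_55_P2142146 at 0.0419, the pair of Glul A_66_P134479 at -0.0141 and the Sox9 pair at -0.161. The Sox9 pair was at -0.0377 with normexp, and the pair of Aldoc A_66_P133314 at 0.0283 with array weights. With an array left out, Gfap A_52_P52303 ranged from -0.257 to 0.0246, the Aldh1l1 pair from -0.169 to 0.0276, the Aldoc pairs from -0.0936 to 0.0418 (A_51_P220681) and from -0.0445 to 0.026 (A_66_P133314), and the Sox9 pair from -0.0389 to 0.175. The cause of these differences was not tested. The pair, position and base composition results, and their alternatives, were added after seeing the data.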
